A study of Mus musculus with 18 samples.

Results

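The 6 genes described here are the aryl hydrocarbon receptor Ahr, its DNA-binding partner Arnt, its repressor Ahrr and 3 genes that the receptor induces, Cyp1a1, Cyp1b1 and Tiparp. They were taken by name from the known pathway, with earlier results of these data in view, and were matched by symbol to 6 of the 53465 Ensembl genes counted in mouse skeletal muscle, white fat and brown fat. The series studied low-dose quercetin, a plant flavonol, and healthspan in C57BL/6J mice, and its RNA sequencing held 18 libraries in 6 groups of 3. The quercetin groups of each tissue received 0.125 mg/kg by oral gavage in a volume of 100 µL, and the vehicle groups received the carrier, 10% PEG400 in phosphate-buffered saline, which the quercetin animals also received. All groups were wild type, and no allele or second agent is named. For the sequenced mice, the age, sex, length of treatment and white fat depot were not given in the sources used here. The labels do not state that libraries with the same number in different tissues came from 1 animal. Their titles use the same arm and number code in each tissue, and the main tests take libraries as separate.

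AHR is a ligand-activated transcription factor that waits in the cytosol in a complex with HSP90 and p23. Dioxins, polycyclic aromatic hydrocarbons, tryptophan metabolites and several dietary flavonoids bind it, and quercetin is among the flavonols known as ligands. The bound receptor enters the nucleus, pairs with ARNT and binds DNA at a motif with the core GCGTG. CYP1A1 and CYP1B1 are monooxygenases that oxidise many of the ligands, and Cyp1a1 is the classic readout of the pathway. AHRR, which competes for ARNT, and TIPARP, which attaches ADP-ribose to the receptor, limit the response.

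Total counts ranged from 8436308 to 12311345 per library. Skeletal muscle markers summed to between 64243 and 117681 CPM, counts scaled by library size, in the muscle libraries, and brown adipocyte markers summed to between 2235 and 10064 CPM in brown fat. Some libraries carried transcripts that mark a second tissue. Adipocyte markers reached 5358 CPM in muscle vehicle 3, epithelial and glandular markers reached 19297 CPM in muscle quercetin 2, and skeletal muscle markers reached 28009 CPM in brown fat quercetin 3. In white fat the adipocyte markers ranged from 489 CPM in vehicle 2 to 33984 CPM in vehicle 1, and a list of lymph node B and T cell markers stood at 457 CPM or more in 4 libraries and at 2.26 CPM or less in vehicle 1 and quercetin 2. Muscle vehicle 3, muscle quercetin 2, white fat vehicle 2 and brown fat quercetin 3 are the 4 libraries left out together below. White fat vehicle 2 had the most skeletal muscle markers of its tissue (977 CPM). White fat quercetin 1 had more lymph node markers than it (2227 against 1769 CPM) and was kept. Brown fat vehicle 1, with 4512 CPM of skeletal muscle markers, was also kept, so the choice followed no common cutoff of these sums. White fat vehicle 1, white fat quercetin 2 and muscle quercetin 3 came from a second flow cell, which held no brown fat library. The white fat libraries of that flow cell are those with 2.26 CPM or less of lymph node markers. They also had the most adipocyte markers of their tissue (33984 and 13211 CPM). In white fat, flow cell and these markers thus cannot be told apart. In tissue samples of this kind, fewer cells of a type and less RNA per cell cannot be told apart.

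Ahrr is itself known as a target of the receptor, and the tissue differences below turn on the 3 induced genes. The promoters of these genes are shown with their matches to the core GCGTG. They were taken from RefSeq on GRCm38.p6, run 5′ to 3′ on the gene's strand and cover 250 bases before to 50 bases after the start site. Capitals mark GCGTG or, where the motif lies on the other strand, CACGC.
Cyp1a1, chr9:57697363-57697662 (+): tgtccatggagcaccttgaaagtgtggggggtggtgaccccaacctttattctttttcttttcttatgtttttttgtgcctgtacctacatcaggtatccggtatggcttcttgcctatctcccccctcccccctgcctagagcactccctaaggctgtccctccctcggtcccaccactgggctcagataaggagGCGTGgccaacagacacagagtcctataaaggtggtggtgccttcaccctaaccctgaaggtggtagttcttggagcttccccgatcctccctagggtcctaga
Cyp1b1, chr17:79715012-79715311 (-): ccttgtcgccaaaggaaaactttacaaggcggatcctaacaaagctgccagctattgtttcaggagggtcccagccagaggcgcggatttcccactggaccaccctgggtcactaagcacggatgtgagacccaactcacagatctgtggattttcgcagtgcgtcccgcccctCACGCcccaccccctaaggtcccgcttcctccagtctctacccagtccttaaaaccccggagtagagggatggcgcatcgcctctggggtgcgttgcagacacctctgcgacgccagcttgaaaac
Tiparp, chr3:65528197-65528496 (+): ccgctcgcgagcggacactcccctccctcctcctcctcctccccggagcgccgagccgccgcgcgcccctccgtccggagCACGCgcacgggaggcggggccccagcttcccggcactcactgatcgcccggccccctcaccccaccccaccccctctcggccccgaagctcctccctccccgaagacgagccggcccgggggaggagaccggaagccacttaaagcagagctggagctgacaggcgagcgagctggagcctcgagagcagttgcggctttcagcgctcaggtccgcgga
Ahrr, chr13:74292282-74292581 (-): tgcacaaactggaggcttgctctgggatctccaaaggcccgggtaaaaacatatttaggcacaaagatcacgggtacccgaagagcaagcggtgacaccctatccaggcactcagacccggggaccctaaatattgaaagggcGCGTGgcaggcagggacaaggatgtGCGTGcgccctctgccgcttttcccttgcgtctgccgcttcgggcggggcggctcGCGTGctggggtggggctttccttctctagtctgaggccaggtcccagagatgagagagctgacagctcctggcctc
Cyp1a1, the classic readout, held 1 match, which began 54 bases before the start site. The matches of Cyp1b1 and Tiparp lay on the other strand, 76 and 170 bases before the start site. Ahrr held 3 matches, at 107, 82 and 27 bases before the start site. The Arnt promoter, not printed, held 1 match at 29 bases before it, and no Ahr sequence was used. Among 32851 promoters of the same length, 32.4% held at least 1 match on either strand and 3.9% held at least 3, so a single match is common in windows of this size. The window of Tiparp had a GC content of 73.7% against a median of 52.7% over all promoters. A match describes these letters and is not evidence of binding, and bases outside the windows were not searched.

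Ahr, at chr12:35497974-35535038 on the minus strand of GRCm38, was the least abundant member after Ahrr in muscle and brown fat, by medians per kilobase of merged exons. Its level in muscle was lowest at 2.91 CPM in vehicle 1, with a median of 8.24 CPM and a highest value of 9.74 CPM over the 6 libraries of both arms. In white fat the lowest, median and highest values were 9.45, 11.8 and 24.5 CPM, and in brown fat they were 5.37, 11.5 and 14.8 CPM. The order by median was white fat, brown fat and muscle, and the ranges of the 3 tissues overlapped. Ahr was higher in white fat than in muscle by 1.05 ± 0.34 on the log2 scale (SE), a 2.07-fold difference with an adjusted p of 0.0186 in edgeR's quasi-likelihood test. Brown fat did not pass against either neighbour in that order, with log2 differences of 0.54 ± 0.34 over muscle and -0.50 ± 0.34 against white fat. With vehicle libraries alone the difference from muscle was 1.15, which did not pass either (adjusted p = 0.141 in edgeR, within 0.110 to 0.548 over 25 alternatives). The white fat difference did not pass without muscle vehicle 2 (adjusted p = 0.0508), without white fat vehicle 3 (0.0772) or without white fat quercetin 3 (0.0606), within a range of 0.00743 to 0.0772 over 25 alternatives in edgeR and DESeq2. Counts of Ahr ranged from 25 to 329 per library, and 127 bases of its exons overlap a gene on the opposite strand, Gm48236, whose reads cannot be told apart where counting ignores strand.

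Arnt, at chr3:95434388-95497240 on the plus strand, encodes the partner that AHR shares with the hypoxia-inducible factors, and it was present in every library at 42.4 CPM or more. In muscle the lowest, median and highest levels were 55.7, 75.6 and 130 CPM. In white fat they were 42.4, 50.8 and 68.1 CPM, and in brown fat 45.7, 58.8 and 70.5 CPM. The ranges overlapped, with muscle vehicle 1 above all other libraries. Arnt was lower in white fat than in muscle, by 0.60 ± 0.21 on the log2 scale as estimated by edgeR (adjusted p = 0.0267, with a range of 0.00683 to 0.101 over 25 alternatives). That call was lost without muscle vehicle 1, where the difference was -0.42 (adjusted p = 0.0737 in edgeR), and also without muscle quercetin 1 (adjusted p = 0.0584). It was also lost at -0.56 without the 4 libraries that stood apart by their markers (adjusted p = 0.101). Brown fat, in the middle of the order, passed against neither white fat (0.14 ± 0.21) nor muscle (-0.46 ± 0.21, adjusted p = 0.117 in edgeR).

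Per kilobase, Arnt exceeded Ahr in all 18 libraries. The ratio had a median of 7.22 in muscle, 3.32 in white fat and 4.32 in brown fat, and its lowest value was 1.58 in white fat vehicle 3, the library with the most Ahr. Its highest value was 34.4 in muscle vehicle 1, which had both the least Ahr and the most Arnt of the muscle libraries.

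Ahrr, at chr13:74211118-74292331 on the minus strand, was near the limit of detection. The 6 muscle libraries held 6 counts in total, with none in vehicle 1, and the 6 brown fat libraries held 8, with none in vehicle 2, vehicle 3 and quercetin 3. White fat held 57, which were 1, 13 and 23 counts in vehicle 1 to 3 and 6, 6 and 8 counts in quercetin 1 to 3. A library with no count could still hold up to 3 counts by chance, which is 0.349 CPM in muscle vehicle 1. Ahrr did not pass the filter on low counts and was not tested with the other members. In an edgeR fit without that filter, white fat minus muscle was 2.54 ± 0.89 on the log2 scale (adjusted p = 0.0359). Brown fat minus white fat was -2.32 ± 0.88 in the same edgeR fit (adjusted p = 0.0670). Most counts came from white fat, where vehicle 1 held 1, so these values are a description and no call is read from them.

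Cyp1a1, at chr9:57687928-57703824 on the plus strand, separated brown fat from the other tissues. In brown fat the vehicle libraries 1 to 3 held 32.4, 68.9 and 68.3 CPM and the quercetin libraries 71.1, 30.0 and 34.6 CPM. In muscle the vehicle libraries held 2.10, 10.3 and 15.3 CPM and the quercetin libraries 5.02, 6.07 and 10.3 CPM. In white fat the vehicle libraries held 2.51, 1.42 and 13.9 CPM and the quercetin libraries 4.53, 5.11 and 12.3 CPM. All 6 brown fat libraries lay above all 12 others, and the muscle and white fat ranges overlapped. Brown fat was 6.22-fold above muscle (log2 difference 2.64 ± 0.57, adjusted p = 0.00349 in edgeR) and 7.64-fold above white fat (2.93 ± 0.58, adjusted p = 0.00131 in edgeR). Muscle and white fat, neighbours in the order, differed by -0.30 ± 0.55 (white fat minus muscle), with an interval of -1.46 to 0.87, and by -1.13 without white fat vehicle 3.

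The 95% interval of the brown fat excess of Cyp1a1 ran from 2.67 to 14.5-fold over muscle and from 3.25 to 17.9-fold over white fat. With the vehicle libraries alone, 3 against 3, the difference from muscle was 2.61 and missed the threshold (adjusted p = 0.0515, the highest of 25 alternatives, of which the lowest was 2.41e-05 in DESeq2). The difference from white fat passed in all 25 alternatives and was 3.75 without white fat vehicle 3. Without the 4 libraries with transcripts of other tissues the log2 differences were 2.95 and 2.78. Per kilobase, the mean level of Cyp1a1 in brown fat exceeded 84% of 16373 genes, against 48.8% in muscle and 39.6% in white fat. Brown adipocyte markers were also highest in brown fat (2235 to 10064 CPM), with 254 to 878 CPM in muscle and 3.95 to 80.2 CPM in white fat. In muscle quercetin 1 and 3, at 261 and 649 CPM, this sum held no count of Ucp1. The muscle sum is thus no measure of brown adipocytes alone. Within brown fat, quercetin 1 had the most brown adipocyte markers (10064 CPM) and the most Cyp1a1 (71.1 CPM). Quercetin 3 had the fewest of these markers (2235 CPM) and a Cyp1a1 level of 34.6 CPM, above those of vehicle 1 and quercetin 2. The part of these markers in the difference between tissues was not tested.

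**Figure D1:**
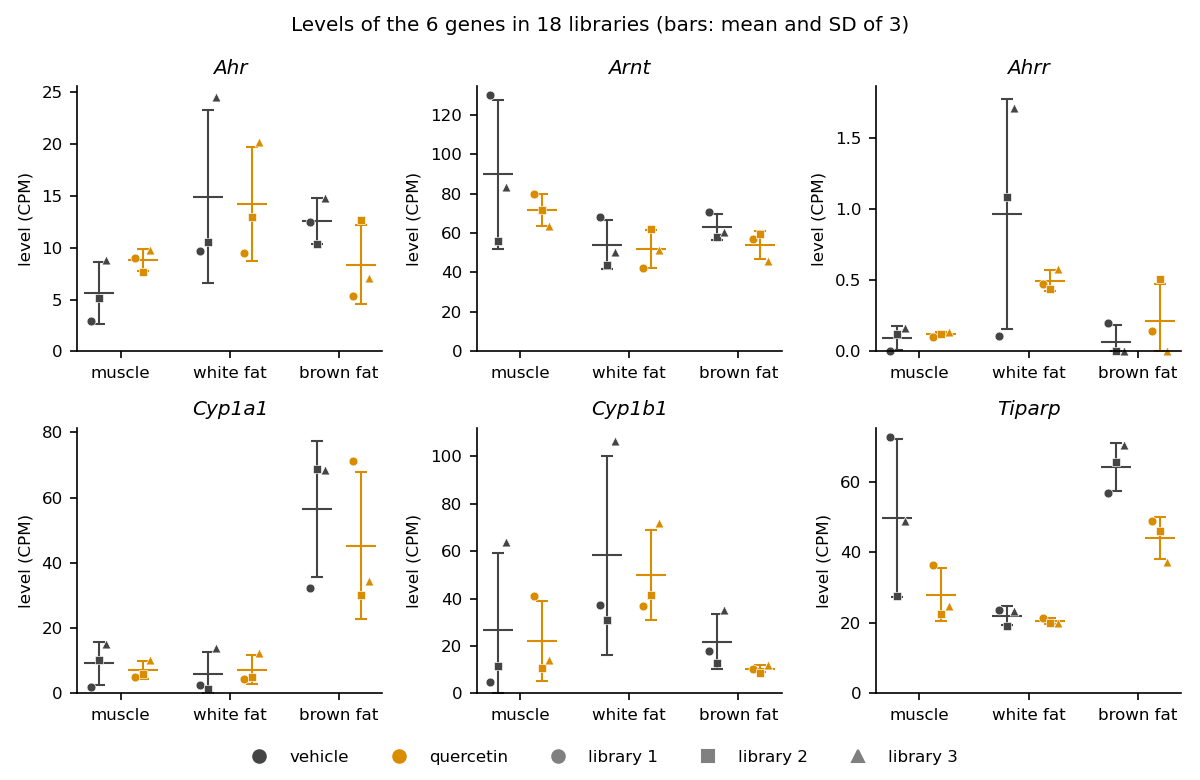
Level of each of the 6 genes in CPM (y axis, linear from 0, own scale per gene) in muscle, white fat and brown fat. Each point is 1 library, black for vehicle and orange for quercetin, with the marker shape giving the library number; the horizontal lines are means of 3 libraries and the bars SD, cut off at 0. Cyp1a1 in brown fat lies between 30.0 and 71.1 CPM, above every library of the other tissues.

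Cyp1b1, at chr17:79701537-79715061 on the minus strand, encodes the sister enzyme of CYP1A1, known from mesenchymal cells, and it had another tissue order. White fat vehicle libraries held 37.3, 30.8 and 107 CPM and quercetin libraries 36.7, 41.6 and 71.9 CPM. Muscle vehicle libraries held 4.77, 11.5 and 63.9 CPM and quercetin libraries 41.3, 10.8 and 14.2 CPM. Brown fat vehicle libraries held 17.9, 12.7 and 35.0 CPM and quercetin libraries 10.5, 8.80 and 11.9 CPM. White fat was highest by median, and muscle and brown fat had close medians of 12.9 and 12.3 CPM. Brown fat was lower than white fat by 1.84 ± 0.56 on the log2 scale (adjusted p = 0.0170 in edgeR), although brown fat vehicle 3 lay within the white fat range. Muscle differed from neither neighbour past the threshold, with 1.15 ± 0.55 for white fat minus muscle (adjusted p = 0.0928 in edgeR) and -0.69 ± 0.55 for brown fat minus muscle.

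The spread of Cyp1b1 between libraries of 1 tissue was wide, with the highest muscle library 13.4 times the lowest. Vehicle 3 was the highest library in each of the 3 tissues. Without muscle vehicle 3 the white fat excess over muscle was 2.01 and passed (adjusted p = 0.00339, within 0.00339 to 0.288 over 25 alternatives in edgeR and DESeq2), as it did without muscle quercetin 1 (1.56, adjusted p = 0.0401) and without the 4 libraries that stood apart (2.0, adjusted p = 0.00721). The brown fat deficit against white fat did not pass without white fat vehicle 3, at -1.43 (adjusted p = 0.0592 in edgeR), nor with vehicle libraries alone, at -1.41 (adjusted p = 0.213). Its adjusted p ranged from 0.00278 to 0.213 over 25 alternatives. Muscle vehicle 3 also had the highest adipocyte markers (5358 CPM) and macrophage markers (366 CPM) of its tissue. The 6 fibroblast and stroma markers summed to 320 CPM in muscle vehicle 1, the library with the least Cyp1b1, and to 1740 CPM in muscle quercetin 1. Other libraries went the other way. Muscle quercetin 2 had 3546 CPM of adipocyte markers and 10.8 CPM of Cyp1b1, and quercetin 1 had 504 and 41.3 CPM. Muscle quercetin 3 had 319 CPM of macrophage markers and 14.2 CPM of Cyp1b1. White fat quercetin 2 had the most fibroblast and stroma markers of its tissue (3763 CPM) and 41.6 CPM of Cyp1b1. The part of these cells in the values was not tested.

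Within a library, the ratio of Cyp1a1 to Cyp1b1 per kilobase does not depend on sequencing depth or on the scaling of the library. It ranged from 3.78 to 14.2 in brown fat, with a median of 6.62. In white fat it ranged from 0.0965 to 0.359, with a median of 0.258. Muscle lay between them by its median of 1.05, and its range of 0.255 to 1.88 overlapped that of white fat through quercetin 1, its lowest library. Thus Cyp1a1 was the more abundant of the 2 transcripts in every brown fat library and the less abundant in every white fat library, and the 3 muscle libraries below 1 were vehicle 1, vehicle 3 and quercetin 1.

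**Figure D2:**
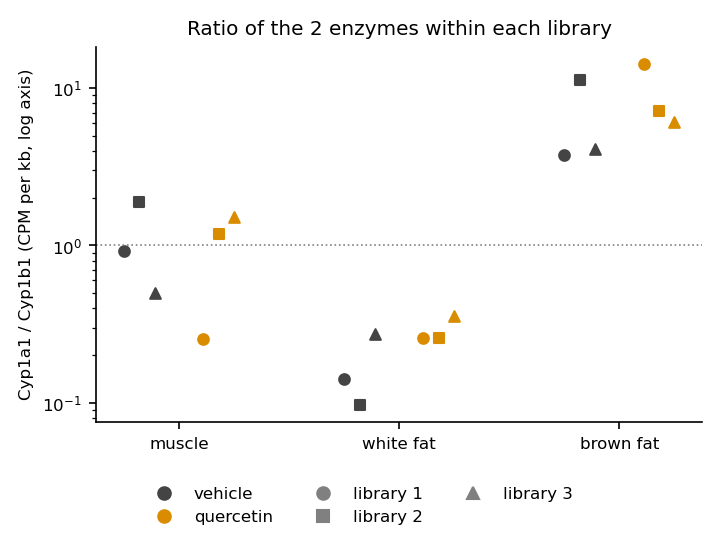
Ratio of Cyp1a1 to Cyp1b1 (y axis, CPM per kilobase of merged exons, log axis) in each library by tissue, black for vehicle and orange for quercetin, with the shape giving the library number and a dotted line at a ratio of 1. All 6 brown fat libraries lie at 3.78 or above and all 6 white fat libraries at 0.359 or below.

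Tiparp, at chr3:65528410-65555518 on the plus strand, encodes the ADP-ribosyltransferase that marks AHR for breakdown, and its highest level in white fat was only 1.25 times its lowest. White fat vehicle libraries held 23.8, 19.0 and 23.4 CPM and quercetin libraries 21.4, 20.1 and 19.9 CPM. Brown fat vehicle libraries held 57.0, 65.7 and 70.4 CPM and quercetin libraries 48.9, 46.1 and 37.3 CPM. Muscle vehicle libraries held 72.7, 27.8 and 48.9 CPM and quercetin libraries 36.6, 22.6 and 24.9 CPM. Brown fat and white fat did not overlap, and muscle reached into both. Tiparp was 2.51-fold higher in brown fat than in white fat (log2 difference 1.33 ± 0.22, adjusted p = 0.000384 in edgeR) and lower in white fat than in muscle by 0.81 ± 0.22 on the log2 scale (adjusted p = 0.00586 in edgeR). Both calls held in all 25 alternatives, with adjusted p up to 0.00514 and 0.0257. Brown fat exceeded muscle, its neighbour in the order, by 0.51 ± 0.21, which did not pass (adjusted p = 0.0896 in edgeR). That difference was 0.70 and passed without muscle vehicle 1, the highest library of all 18 (adjusted p = 0.0167, within 0.0167 to 0.496 over 25 alternatives). A stretch of 223 bases of the Tiparp exons overlaps 4931440P22Rik on the opposite strand, whose reads cannot be told apart where counting ignores strand.

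Of the 5 members tested, 3 passed between white fat and muscle, 1 higher and 2 lower in white fat, where 50.3% of all 16388 genes tested passed, 28.6% higher and 21.7% lower. Between brown fat and muscle 1 member passed, higher in brown fat, against 27.2% of all genes and 13.9% higher. Between brown fat and white fat 3 members passed, 2 higher and 1 lower in brown fat, against 40.3% of all genes, 18.3% higher and 22% lower. These shares are near the background, so the number of members called is not in itself a property of the pathway. All brown fat libraries lay above all muscle libraries for 1 member, Cyp1a1 (7.16% of genes), and above all white fat libraries for 2, Cyp1a1 and Tiparp (8.19% of genes). White fat and muscle overlapped for all 5 members, while 23.7% of genes did not overlap. The 3 comparisons share libraries, since each tissue enters 2 of them. With the flow cell as a term, each of these 7 calls held. In white fat that term cannot be told apart from the lymph node and adipocyte markers.

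**Figure D3:**
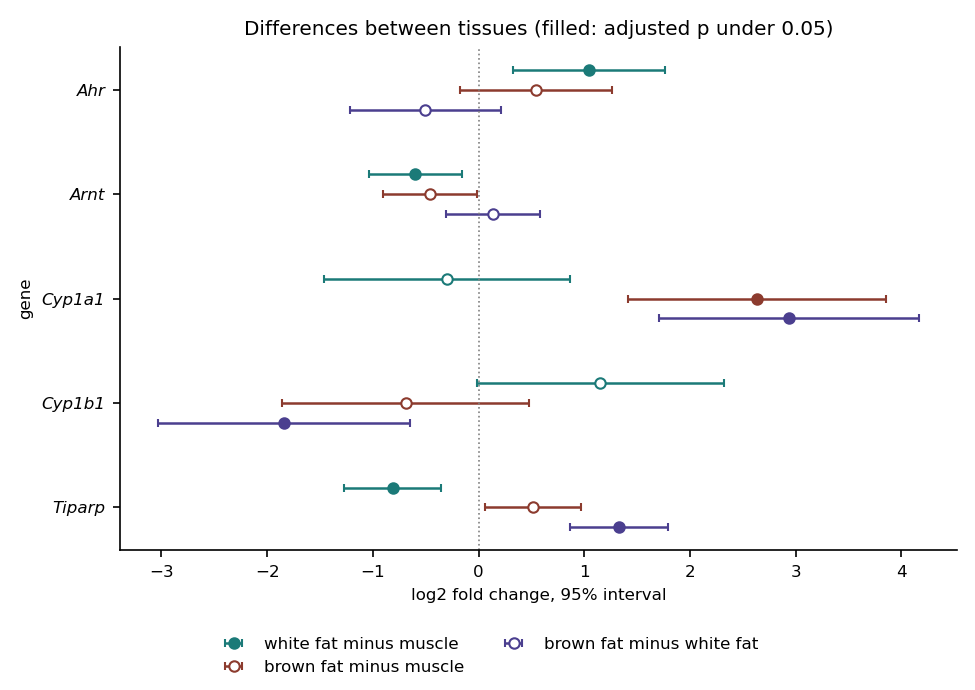
Log2 fold change between tissues (x axis) for the 5 members tested (y axis), with 95% intervals from edgeR over 18 libraries; filled points have an adjusted p under 0.05. Cyp1a1 stands at 2.64 and 2.93 for brown fat against muscle and white fat, and Cyp1b1 at -1.84 for brown fat against white fat.

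Each member's pattern over the 18 libraries was also set beside those of 16387 other genes, with Pearson's r of log2 CPM as the measure of likeness and with no test. The points share tissues and arms, so differences between tissues enter r. The genes most like Cyp1a1 were Sugct (0.92), Dnajc15 (0.90) and Mccc1 (0.90). Those most like Tiparp were Osbpl9 (0.88), Nedd4l (0.87) and Slc25a33 (0.86), and those like Cyp1b1 included Runx2 (0.86) and Siglec1 (0.85). Ahr was most like Tmem164 (0.84), Asah1 (0.84) and Tmppe (0.83), and Arnt was most like 2900026A02Rik (0.93), Psmd1 (0.93) and Herpud2 (0.92). With the mean of each tissue removed, r fell to 0.67 for Sugct and 0.66 for Osbpl9 but stayed at 0.80 for Runx2 and 0.87 for 2900026A02Rik. No member was among the 3 genes most like another member. Between members, r ran from -0.49 for Ahr and Arnt to 0.74 for Ahr and Cyp1b1. With tissue means removed it ran from -0.34 for Arnt and Cyp1a1 to 0.75 for Arnt and Tiparp. It was then 0.72 for Ahr and Cyp1b1 and 0.62 for Cyp1a1 and Cyp1b1.

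Whether quercetin changed the receptor or its readouts was asked in each tissue, 3 libraries against 3. None of the 5 tested members passed in muscle, white fat or brown fat with edgeR, and none passed with DESeq2; edgeR called 0% of genes in each tissue. At an unadjusted p under 0.05, edgeR counted 0 members in muscle, 0 in white fat and 2 in brown fat, where 2.99%, 0.818% and 1.82% of all genes did so, and DESeq2 counted 0, 0 and 1. Averaged over the 3 tissues, no member passed in either tool (0% of genes in edgeR), and 1 member had an unadjusted p under 0.05 in each, against 5.48% of genes in edgeR. The arms overlapped for all 5 members in muscle (9.25% of genes did not overlap) and in white fat (4.44% did not). An exact permutation test of 3 libraries against 3 could not give a p below 0.1 for any single gene.

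Cyp1a1, the readout that rises most when AHR is activated, showed no detectable difference. In brown fat, where its level was highest, quercetin minus vehicle was -0.33 ± 0.42 on the log2 scale, with an interval of 0.40 to 1.59-fold. The arms overlapped there, since quercetin 1 was the highest brown fat library and quercetin 2 the lowest. In muscle the difference was -0.41 ± 0.66 (interval 0.262 to 2.14-fold) and in white fat 0.27 ± 0.95 (interval 0.243 to 5.99-fold), and both arms overlapped in both tissues. The muscle estimate was 0.17 without vehicle 3 and the white fat estimate 1.88 without vehicle 3, so that single libraries set the sign or the size. The average over the 3 tissues was -0.14 ± 0.44, an interval of 0.473 to 1.75-fold.

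Of the 5 tested members, 3 had estimates below 0 in all 3 tissues, namely Tiparp, Arnt and Cyp1b1, against 20.6% of the 12261 genes tested in each. For Tiparp in brown fat the quercetin libraries (37.3 to 48.9 CPM) all lay below the vehicle libraries (57.0 to 70.4 CPM), a difference of -0.54 ± 0.23 on the log2 scale that did not pass (adjusted p = 0.977 in edgeR). In muscle the difference was -0.88 ± 0.40 (adjusted p = 0.910 in edgeR) and the arms overlapped. It was -0.48 without muscle vehicle 1. In white fat the difference was -0.13 ± 0.26, with an interval of 0.593 to 1.41-fold. The average over tissues was -0.49 ± 0.17, with an unadjusted interval of 0.549 to 0.919-fold and an adjusted p of 0.841 in edgeR and 0.591 in DESeq2. It lay between -0.61 and -0.37 in all 24 alternatives, none of which passed.

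Cyp1b1 in brown fat was the other member whose arms did not overlap, with 8.80 to 11.9 CPM in quercetin libraries and 12.7 to 35.0 CPM in vehicle libraries. The difference was -1.06 ± 0.43 (adjusted p = 0.977 in edgeR) and -0.56 without vehicle 3. Over all genes tested in brown fat, 6.19% did not overlap between the arms and 3.32% were lower in every quercetin library. The muscle estimate of Cyp1b1 was -0.31 ± 0.90 and turned to 1.42 without vehicle 3, and to 1.75 without vehicle 3 and quercetin 2. In white fat it was -0.24 ± 0.58 and turned to 0.55 without vehicle 3. Neither tissue kept the sign of its estimate.

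The summed levels of 6 endothelial markers in brown fat were also lower with quercetin, at 1040 to 1221 CPM in quercetin and 1272 to 1423 CPM in vehicle libraries. None of the 6 was at 0 in any library. Of these markers 4 had lower and 2 higher estimates with quercetin, from -1.17 for Vwf and -0.65 for Kdr to 0.059 for Cldn5 and 0.072 for Tie1. The 5 macrophage markers summed to 63.1 to 129 CPM with quercetin and to 83.9 to 289 CPM with vehicle, also with none at 0. All 5 had lower estimates with quercetin, with a median of -0.55, although the summed ranges overlapped. Brown fat vehicle 1 had the highest endothelial sum (1423 CPM) but the least Tiparp of the vehicle libraries (57.0 CPM). Other lists did not all fall. Of 6 fibroblast and stroma markers 4 had higher estimates with quercetin (median 0.061), as did all 6 skeletal muscle markers (median 2.05) and 3 of 5 adipocyte markers. Lower estimates were found for 4 of 5 brown adipocyte markers and 3 of 5 pericyte and smooth muscle markers. None of these markers passed in edgeR. Their part in the values of Tiparp and Cyp1b1 was not tested. Without brown fat quercetin 3, the library with muscle transcripts, the differences were -0.47 for Tiparp and -1.21 for Cyp1b1.

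The receptor and its partner showed no difference that passed. Ahr had estimates of 0.60 ± 0.45 in muscle, -0.088 ± 0.52 in white fat and -0.57 ± 0.41 in brown fat, and the arms overlapped in each tissue. Over the alternatives the muscle estimate ran from 0.30 to 1.19, the highest without vehicle 3 and quercetin 2, and it was 1.09 without vehicle 3 alone. The brown fat estimate ran from -0.98 to -0.34, and none of these passed. In muscle the 3 vehicle libraries held 2.91, 5.17 and 8.80 CPM and the quercetin libraries 8.99, 7.69 and 9.74 CPM. Its average was -0.0054 ± 0.28, with an interval of 0.659 to 1.51-fold. Arnt had estimates of -0.37 ± 0.36 in muscle, -0.079 ± 0.31 in white fat and -0.22 ± 0.23 in brown fat, with an average interval of 0.676 to 1.12-fold. Within the first flow cell, 2 white fat libraries against 2, the estimates were -0.29 for Ahr, -0.047 for Arnt, 0.091 for Cyp1a1, -0.38 for Cyp1b1 and -0.076 for Tiparp, and none passed. In muscle the first flow cell is the set without quercetin 3, with 0.52, -0.30, -0.78, -0.072 and -0.80 for the genes in that order, and none passed. The muscle estimate of Arnt was 0.017 without vehicle 1. Ahrr totalled 3 counts in each arm of muscle, 37 with vehicle and 20 with quercetin in white fat, and 2 and 6 in brown fat, too few to show a difference. In a joint fit, the quercetin difference did not vary between tissues past the threshold for any of the 5 members (2 degrees of freedom, adjusted p = 1 in edgeR, where 0% of genes passed).

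**Figure D4:**
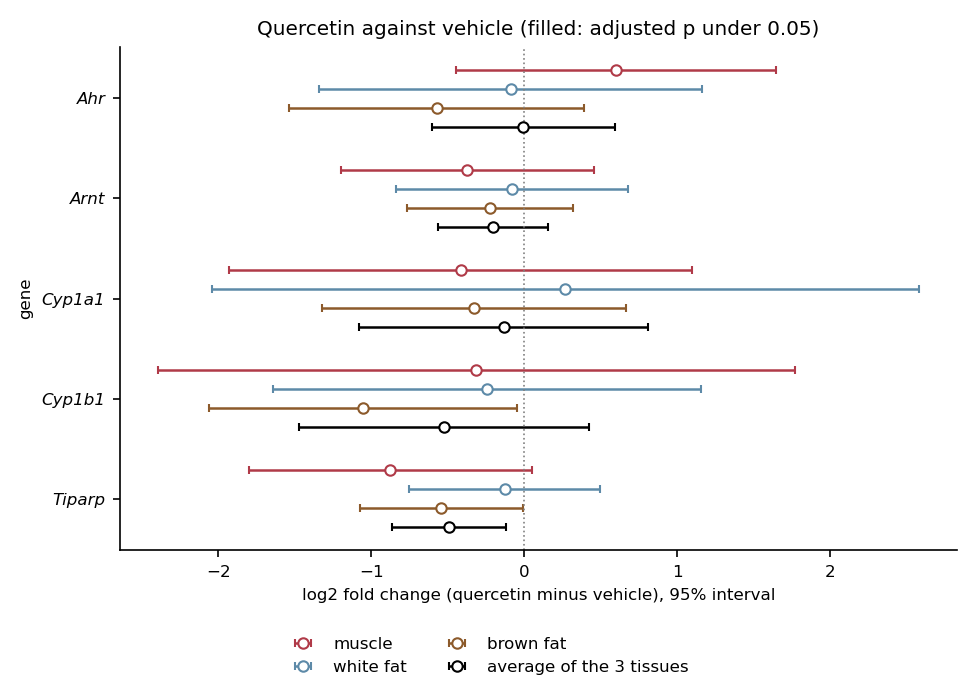
Log2 fold change of quercetin against vehicle (x axis) for the 5 members tested (y axis) in each tissue and on average, with unadjusted 95% intervals from edgeR; open points did not pass an adjusted p of 0.05. The intervals of Cyp1b1 and Tiparp in brown fat and of the Tiparp average end just below 0, and all others include it.

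The rest of the pathway was followed in 32 further genes in 5 lists. With quercetin, 19 of them were tested in muscle, 24 in white fat and 20 in brown fat, and none passed or had an unadjusted p under 0.05 in edgeR. For the average, 27 were tested, none passed, and 1 had such a p. That gene was Nfe2l2, which encodes the antioxidant regulator NRF2 and was chosen after its values were seen (-0.44 ± 0.19, adjusted p = 0.841 in edgeR). The list of 15 other induced genes had medians of -0.11, -0.29 and -0.32 over the 8, 10 and 8 genes tested in muscle, white fat and brown fat, beside -0.034, -0.014 and 0.051 over all genes. The 4 coactivators had medians of 0.13, -0.15 and -0.31. The 4 genes of the cytosolic receptor complex had medians of -0.72, -0.16 and 0.083 in the same order of tissues, and 3 of them had lower estimates in muscle. Arnt2, Hif1a and Epas1 had a median of -0.13 in muscle and -0.50 in white fat, and the 2 of them tested in brown fat -0.20. Of 6 genes for enzymes that turn tryptophan or its product kynurenine into AHR ligands or other products, none was tested in muscle, and the medians were 0.37 over 3 genes in white fat and 0.92 over 2 genes in brown fat.

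Between tissues, 8 of 27 other pathway genes passed in white fat against muscle, 5 in brown fat against muscle and 8 in brown fat against white fat. These shares were below the 50.3%, 27.2% and 40.3% of all genes that passed. Of the tryptophan genes, Kmo, which hydroxylates the AHR ligand kynurenine, had a median of 18.2 CPM in white fat, 0.904 CPM in muscle and 1.25 CPM in brown fat, and was 3.92 ± 0.98 above muscle on the log2 scale (adjusted p = 0.00416 in edgeR). Kmo ranged from 0 to 33.7 CPM among the white fat libraries. Brown fat was below white fat for Kmo by -4.00 ± 0.99 (adjusted p = 0.00541 in edgeR). Tdo2 and Ido1 open the route from tryptophan to kynurenine. Tdo2 had 110 counts in the 6 white fat libraries and 8 in muscle, and edgeR put white fat 3.31 ± 0.89 above muscle. Ido1 had 98 counts in brown fat and 14 in white fat, a difference of 3.18 ± 0.79 that was 2.07 without brown fat quercetin 3 and did not pass with vehicle libraries alone (3.05, adjusted p = 0.0733 in edgeR, the highest of 25 alternatives). Afmid, which acts between these enzymes and Kmo and was chosen after its values were seen, had 186 counts in white fat and 27 in brown fat, a difference of -2.23 ± 0.73. Each of these 3 genes passed the count filter within the tissue where it was high and in no other, so it entered the comparison through that tissue and its difference is a description. Ido2 and Il4i1 did not pass the filter, and no median is given for this list.

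Hif1a, the hypoxia-inducible partner of ARNT, was higher than in muscle in white fat (0.87 ± 0.22) and in brown fat (0.85 ± 0.22, not passing with vehicle libraries alone at 0.98, adjusted p = 0.0592 in edgeR, the highest of 25 alternatives), with medians of 33.0, 53.7 and 64.0 CPM in muscle, white fat and brown fat. Arnt2, the paralog of Arnt, was lower in brown fat than in muscle (-2.84 ± 0.83, adjusted p = 0.0186 in edgeR) and white fat (-2.74 ± 0.82, adjusted p = 0.0154, within 0.00144 to 0.0547 over 25 alternatives), with 30 counts in brown fat in all, where it did not pass the count filter. The difference from muscle was not called without muscle vehicle 3, at -1.93 (adjusted p = 0.0857 in edgeR, within 0.00129 to 0.129 over 25 alternatives), nor with vehicle libraries alone (-3.02) or without the 4 libraries that stood apart (-2.13). Without brown fat vehicle 1 the differences were -5.04 and -4.93. Epas1 did not pass in edgeR in any of the 3 comparisons with all libraries, but passed in brown fat against white fat without white fat vehicle 1 (1.16, adjusted p = 0.0138, within 0.0138 to 0.963 over 25 alternatives). List medians were -0.077, 0.40 and -0.028, in the order of comparisons given above. Among the coactivators, Ncoa3 was lower in brown fat than in muscle (-0.54 ± 0.19) and white fat (-0.91 ± 0.19), with list medians of 0.32, -0.085 and -0.46. The muscle difference of Ncoa3 was not called in 9 of 18 fits that each left out 1 library. Ncoa1 was called higher in brown fat than in white fat without brown fat quercetin 3 (1.02, adjusted p = 0.0104 in edgeR) and without the 4 libraries that stood apart (1.01).

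The HSP90 genes and Ptges3 gave no call in edgeR with all 18 libraries. Hsp90aa1, a chaperone of the unbound receptor, had an estimate of 1.41 for brown fat against muscle that was called in DESeq2 (adjusted p = 0.0269) and in 4 of 18 edgeR fits that each left out 1 library, with adjusted p from 0.00724 to 0.2997 over 25 alternatives. Without white fat vehicle 2, Hsp90aa1 was called higher in brown fat than in white fat (1.54, adjusted p = 0.0383 in edgeR) and Hsp90ab1 lower in white fat than in muscle (-1.12, adjusted p = 0.0314 in edgeR). Both were also called without the 4 libraries that stood apart, at 1.65 and -1.24 (adjusted p = 0.0495 and 0.0289, within 0.0204 to 0.487 and 0.0289 to 0.320 over 25 alternatives).

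Of the 12 other induced genes tested, edgeR called 0 higher in brown fat than in white fat, where 18.3% of all genes were, and 3 lower. It called 1 higher in brown fat than in muscle, where 13.9% of all genes were, and this was Ccng2 (1.41 ± 0.31, adjusted p = 0.00365). Nothing about the list is read from counts this small. Ccng2, a cyclin of resting cells, was also higher in white fat than in muscle (0.95 ± 0.31), where Nfe2l2 was lower (-0.74 ± 0.24). With vehicle libraries alone neither of these white fat calls passed, and that of Ccng2 did not pass without the 4 libraries that stood apart (0.64), nor did that of Ccng2 without muscle vehicle 2, white fat vehicle 2 or white fat quercetin 1 (adjusted p from 0.0501 to 0.0645 in edgeR), or that of Nfe2l2 without muscle vehicle 1 or muscle quercetin 1 (0.0523 and 0.0545). White fat against muscle also called Nqo1 and Hes1 lower, which were named after their values were seen. Cyp2s1, named in the same way, was higher in white fat than in muscle by 2.16 ± 0.84. It passed the count filter within white fat only, so this difference is a description. Aldh3a1, an aldehyde dehydrogenase, had no count in any brown fat library, 46 counts in muscle and 75 in white fat. Against a floor of 3 counts over the 6 brown fat libraries, pooled counts put it at least 14.9-fold lower in brown fat than in muscle. Against white fat the same bound was 17.6-fold. These bounds take no account of the spread between libraries. Aldh3a1 passed the count filter within white fat only, so its differences are a description. The amino acid carrier gene Slc7a5 was lower in brown fat than in white fat (-2.35 ± 0.66, adjusted p = 0.0106 in edgeR), and this call was lost with vehicle libraries alone (-2.09, adjusted p = 0.119, the highest of 25 alternatives). Cyp2s1 was also lower there, with 167 counts in white fat and 13 in brown fat, and this difference too is a description, since the gene passed the filter within white fat only. Cyp1a2, the liver-enriched relative of Cyp1a1, had 2 counts in brown fat, 2 in white fat and none in muscle. List medians were 0.14, -0.054 and 0.26 over 12 tested genes. In both brown fat comparisons Aldh3a1 was the lowest of the 12 as fitted and at its bound, so the bound leaves these medians in place by construction.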

How the data were processed

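RNA was sequenced from 18 libraries. Per the labels' protocols, TRIzol was used for extraction, a DNA-free kit for removal of DNA and a NEBNext Ultra kit for the libraries. The deposited files hold 1 raw count per Ensembl gene for each library, not normalised. The build mm10 and the tools HISAT2, HTSeq and DESeq2 are named per the submitters' processing notes; versions, annotation release and strand setting were not given in the sources used here. Each file held 53465 genes and 5 summary lines. Reads without a feature were 2.53 to 9.11% and ambiguous reads 6.47 to 9.84%, and both were left out. GENCODE on GRCm38 gave 53360 identifiers a symbol, with coordinates and merged exon lengths. Each of 18 replicate pairs differed by a chi-square of at least 29.8 per degree of freedom, so no pair was a copy.

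Groups came from the titles. Quercetin was compared within each tissue in its own fit; tissues, the average and the difference of effects were tested in 1 fit of 18 libraries with a coefficient per group. Fits used edgeR 4.0.16 in R 4.3.3: filterByExpr (minimum count 10, minimum total 15), TMM and the two-sided quasi-likelihood F test, with Benjamini-Hochberg adjustment over all genes tested and a threshold of 0.05. SE and 95% intervals come from that fit and are unadjusted; DESeq2 1.42.0 was an alternative. Nothing says which libraries came from separate animals, so p-values measure the spread between libraries. Levels are CPM scaled by TMM over all 18 libraries, and so differ slightly from the scaling behind the fold changes within a tissue. Likeness used log2(CPM + 0.5). The calculations were tested on simulated counts with known changes. For quercetin, edgeR recovered 44% of 4-fold changes in muscle, 1% in white fat and 27% in brown fat. It recovered 97%, 30% and 88% of 16-fold changes. DESeq2 recovered more, with 33, 104 and 62 false calls beside 6, 1 and 11 in edgeR. An absent call with quercetin, above all in white fat, thus does not exclude a change. The members, lists and marker genes were chosen with earlier results of these data known. The text names the 6 members, any other pathway gene past the threshold with quercetin, the 2 genes of smallest p per list among those past it between tissues, and the 3 genes most like each member; some genes that this rule takes are not reported here. Same-numbered libraries of the 2 arms were not paired by their deviations (r from -0.699 to 0.266). Between tissues, r ran from 0.053 to 0.298 with vehicle and from -0.136 to 0.149 with quercetin. With vehicle 17 of 18 comparisons correlated best with their own number, and with quercetin 9 of 18. The main tests between tissues and of the average take libraries as separate, so shared animals could alter their p-values.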

Additional observations from a re-analysis of the deposited data

Results flagged for a closer look

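Among 18 sets of 6 libraries (6 genes in 3 tissues), 3 had a highest or lowest library set apart from the rest by a gap that exceeded 0.625 of the whole range, the 95% critical value of Dixon's test. Chance alone gives such a gap in about 5% of sets. Arnt in muscle was highest in vehicle 1, at 130 CPM, with a gap of 0.629 of the range. Ahrr in muscle was lowest in vehicle 1, at 0 CPM, with a gap of 0.647, and this set holds 0 to 2 counts per library. Cyp1b1 in brown fat was highest in vehicle 3, at 35.0 CPM, with a gap of 0.651. Muscle vehicle 1 was also the library with the least Ahr, Cyp1a1 and Cyp1b1 and the most Tiparp of its tissue.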

How the results depend on the processing

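Over 1680 recomputed values, 1572 kept their direction and their side of the threshold, or for counts of genes stayed within 1.5 times, 40 changed sign, 40 lost a call, 20 gained one and 8 counts moved further. The cause was not tested where none is given. Among the members, every change of sign was in a value that had not passed. Without the 2 muscle libraries with transcripts of other tissues, the quercetin estimate in muscle was 1.75 for Cyp1b1 and 0.28 for Cyp1a1. Without the 4 such libraries, the average quercetin effect was 0.16 for Ahr and 0.019 for Cyp1b1, and the white fat minus muscle difference was 0.17 for Cyp1a1, -0.56 for Arnt (no longer passing), 2.0 for Cyp1b1 (now passing) and 0.15 for Epas1. With the flow cell as a term the average of Ahr was 0.035. With vehicle libraries alone, which have fewer samples, Arnt (-0.73, white fat minus muscle), Cyp1a1 (2.61, brown fat minus muscle) and Cyp1b1 (-1.41, brown fat minus white fat) no longer passed. With those libraries Epas1 was 0.36 for white fat minus muscle and -0.055 for brown fat minus white fat, Ep300 was 0.015 for brown fat minus muscle, and the genes called were 5076 for white fat against muscle, 1689 for brown fat against muscle and 3106 for brown fat against white fat, beside 8251, 4461 and 6604 with all libraries. Without the filter on low counts, Arnt was -0.62 for white fat minus muscle and did not pass, and 32 genes were called in muscle with quercetin, beside 0. DESeq2 called 7 genes in white fat, 2 in brown fat and 4 on average with quercetin, beside 0 in edgeR.

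Leaving out 1 library at a time gave these ranges. With quercetin in muscle, Arnt ran from -0.62 to 0.017, Cyp1b1 from -1.15 to 1.42 and Cyp1a1 from -0.88 to 0.17. In white fat, Arnt ran from -0.26 to 0.15, Ahr from -0.43 to 0.49, Cyp1b1 from -0.60 to 0.55 and Cyp1a1 from -0.33 to 1.88. In brown fat 0 to 1 gene was called, the 1 without quercetin 3. On average, Ahr ran from -0.15 to 0.16, Cyp1b1 from -0.80 to 0.048 and Cyp1a1 from -0.35 to 0.38. White fat minus muscle ran from -0.78 to -0.42 for Arnt, 0.74 to 1.29 for Ahr, 0.74 to 2.01 for Cyp1b1 and -0.75 to 0.12 for Epas1. Brown fat minus muscle ran from -0.60 to -0.28 for Arnt (passing without muscle vehicle 2), -0.95 to 0.17 for Cyp1b1 and 0.35 to 0.70 for Tiparp. Brown fat minus white fat ran from -2.10 to -1.43 for Cyp1b1.

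With the replicate number as a block, although the numbers were not shown to pair the libraries, the quercetin estimate of Cyp1b1 in muscle was 0.13, the averages of Ahr and Cyp1a1 were 0.047 and 0.060, and the white fat excess of Cyp1b1 over muscle was 1.43 and passed. It also ended the calls of Arnt2 in brown fat against muscle (-2.47) and white fat (-2.43) and made those of Hsp90aa1 pass (1.21 and 0.92). The block left the calls of the other members and, at 0, the count of genes called with quercetin. In muscle 0, in white fat 0 and in brown fat 2 of 6 libraries correlated best with their own number in the other arm; between tissues 17 of 18 comparisons did so with vehicle and 9 of 18 with quercetin. Depth limits Ahrr most, at 0 to 23 counts per library.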
